A study of Mus musculus with 8 samples.

Results

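The ligands described here are interferon gamma and 7 members of the TNF superfamily, measured as RNA in cultured, activated CD8+ T cells of the mouse. The 8 genes, Ifng, Tnf, Lta, Ltb, Fasl, Tnfsf10, Tnfsf8 and Tnfsf14, were taken from the table by symbol, as a set named with earlier results of these data known. All 8 are among its 24976 gene symbols, and all 8 passed the filter on low counts that left 12742 genes for testing. RNA was sequenced in bulk from naive CD8+ T cells of Cd8Cre NR4a1flox/flox NR4a2flox/flox mice, labelled dKO, and of wild-type (WT) littermates. Cells of every group received anti-CD3 at 2 µg/ml, anti-CD28 at 1 µg/ml and IL-2 at 10 ng/ml. The groups are dKO at 48 h, WT at 48 h, dKO at 24 h and WT at 24 h, with 2 libraries each. Cre in these mice is under Cd8 control and the floxed genes encode the nuclear receptors NR4A1 and NR4A2, which T cell receptor signals induce. How many animals gave each library, their age and sex, and whether libraries of a group came from separate cultures are not stated in the sources used here, so p-values measure only the spread between these libraries, which may be technical.

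Interferon gamma is secreted by activated CD8+ T cells and NK cells, binds the IFNGR1 and IFNGR2 receptor chains and acts through JAK kinases to induce antigen presentation and guanylate-binding proteins in responding cells. Ligands of the TNF superfamily are mostly trimers held in the membrane of the producing cell. TNF is cut from the surface by the protease ADAM17 and signals through TNFR1 and TNFR2 to NF-kB. Lymphotoxin alpha is secreted as a homotrimer that binds the TNF receptors, or stays at the surface in a heterotrimer with lymphotoxin beta that binds the lymphotoxin beta receptor. Fas ligand and TRAIL, the product of Tnfsf10, engage death receptors, while CD30 ligand (Tnfsf8) and LIGHT (Tnfsf14) act as costimulators.

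Of the ligands called higher under the dKO label over both times, Tnfsf10 and Tnfsf14 have no promoter sequence printed here. Promoter sequences are shown for Ifng and for the 3 genes of the TNF and lymphotoxin cluster, which were also called. Each is the stretch before the RefSeq transcription start on GRCm38.p6, written 5′ to 3′ on the strand of the gene, and all 8 genes matched the RefSeq promoter table. Ifng lies at chr10:118441046-118445892 on the plus strand in GENCODE M21 (GRCm38/mm10), and its promoter stretch is chr10:118440796-118441045. Tnf lies at chr17:35199381-35202007 on the minus strand, with its stretch at chr17:35202008-35202257. Lta lies at chr17:35203165-35205351 on the minus strand, with its stretch at chr17:35205352-35205601. Ltb lies at chr17:35194439-35196320 on the plus strand, and its stretch, chr17:35194257-35194438, stops before the earliest annotated start. Capitals mark TATAAA in the first 3 sequences and a match to the kappaB letters GGGNNTTTC, on the opposite strand, in Ltb.
Ifng: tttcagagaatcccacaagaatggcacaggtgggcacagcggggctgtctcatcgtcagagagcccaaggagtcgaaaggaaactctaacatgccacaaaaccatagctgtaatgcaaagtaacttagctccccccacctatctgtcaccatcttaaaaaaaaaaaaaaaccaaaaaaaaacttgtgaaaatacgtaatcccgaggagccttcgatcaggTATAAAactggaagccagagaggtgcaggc
Tnf: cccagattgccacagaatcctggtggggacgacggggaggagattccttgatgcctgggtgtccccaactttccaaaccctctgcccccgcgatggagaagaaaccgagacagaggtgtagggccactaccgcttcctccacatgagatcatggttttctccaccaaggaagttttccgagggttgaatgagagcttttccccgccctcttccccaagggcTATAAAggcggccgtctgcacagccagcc
Lta: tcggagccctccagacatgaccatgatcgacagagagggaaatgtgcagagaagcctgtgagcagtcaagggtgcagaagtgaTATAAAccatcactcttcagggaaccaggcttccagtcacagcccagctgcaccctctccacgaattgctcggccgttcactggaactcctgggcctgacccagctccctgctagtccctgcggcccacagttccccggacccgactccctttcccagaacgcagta
Ltb: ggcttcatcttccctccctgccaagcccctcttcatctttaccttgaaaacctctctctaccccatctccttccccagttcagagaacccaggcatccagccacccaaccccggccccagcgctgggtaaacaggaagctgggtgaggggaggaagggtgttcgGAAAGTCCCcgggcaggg
The TATAAA of Ifng begins 30 bases before the start and that of Tnf 29 bases before it, while that of Lta begins 167 bases before it. These letters occur in 12.4% of the 32851 promoter windows of 250 bases in the table, searched on both strands. The NFAT core GGAAA occurs in the windows of all 8 genes, as it does in 55.6% of all windows. The kappaB letters occur in the window of Ltb, at 86 and 20 bases before the start (the nearer match lies past the printed stretch), and in 3.72% of all windows. The NBRE letters AAAGGTCA, which NR4A monomers bind, match in 0 of the 8 windows and in 1.34% of all windows, and the T-box letters GGTGTGA match in 0 of the 8 and in 3.33%. The AP-1 letters TGANTCA occur only in the window of Tnfsf14, 160 bases before its start, and in 6.75% of all windows. No motif overlapped another except the GGAAA of Ltb, which shares bases with its kappaB match. A match of letters is a description of these windows and not a measured binding site.

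Total counts ran from 5000952 to 21686236 per library, so that a count of 0 allows up to 0.138 to 0.600 counts per 1000000 counts (CPM). The targeted genes were not lower throughout under the dKO label. Nr4a1 stood at 635 and 669 CPM in dKO at 48 h, 881 and 779 CPM in WT at 48 h, 533 and 506 CPM in dKO at 24 h, and 526 and 276 CPM in WT at 24 h. Its dKO libraries thus lay below the WT libraries at 48 h, while the genotypes overlapped at 24 h. Nr4a2 stood at 75.5 and 77.3 CPM in dKO and 24.6 and 33.2 CPM in WT at 48 h, and at 143 and 136 CPM in dKO and 59.9 and 49.2 CPM in WT at 24 h. It was higher under the dKO label by 1.37 on the log2 scale over both times (edgeR quasi-likelihood test, adjusted p = 0.000450). Whether the counts fall on deleted exons is not known, and these levels do not check the genotype labels. Directions below refer to the libraries as labelled, and a swap of the labels, which was not tested, would turn every genotype difference. Xist and Y-linked RNA split the libraries by genotype label, with Y-linked RNA at 135 to 159 CPM under dKO and 1.32 to 2.00 CPM in WT, so sex and genotype label cannot be told apart. The WT libraries at 48 h stood apart, with a correlation of 0.965 between them against 0.985 to 0.989 within the other groups, and values without them are given where a call on a ligand depends on them. Ribosomal protein RNA took 7.04% of counts in WT replicate 2 of 48 h, the lowest, with WT replicate 1 of 48 h next, against 11.7% to 13.4% in the other groups. That replicate 2 also held 21686236 counts, against at most 8278058 in each other library. Their part in the results was not tested. Summed markers of CD8 T cells (4 of 5 genes in the table) were 993 to 1651 CPM. Of 5 listed NK and gamma delta T markers, only the NK receptor genes Ncr1 and Klrb1c are in the table. They summed to 0 to 0.298 CPM, with Ncr1, a defining NK receptor, at 0 in all 8 libraries. The gamma delta T genes of the list are absent, so gamma delta T cells were not assessed. Markers of CD4 or regulatory T cells summed to 1.94 to 4.65 CPM, of B cells to 3.72 to 6.60 CPM and of stromal cells to 5.07 to 10.3 CPM. Lyz2, a defining myeloid gene, was at 0 in all 8 libraries. Cd14, another listed myeloid gene, was at 10.0 to 12.3 CPM in WT and 4.55 to 4.91 CPM in dKO at 48 h. At 24 h it was at 3.38 to 4.08 CPM in WT and 3.06 to 4.09 CPM in dKO. Of 2 tested myeloid markers, Cd14 was the 1 called lower under the dKO label at 48 h, where 8.04% of all genes were. In WT Cd14 also rose with time. Cd68, the other tested marker, lay the other way and was not called in a genotype comparison. It was at 1.04 to 1.69 CPM in dKO and 0.421 to 1.03 CPM in WT at 48 h. At 24 h Cd68 was at 2.04 to 2.41 CPM in dKO and 1.32 to 1.55 CPM in WT. Summed myeloid markers (7 of 8 genes) were 6.25 to 7.67 CPM in dKO at 48 h, 11.5 to 14.9 CPM in WT at 48 h, 6.32 to 6.67 CPM in dKO at 24 h and 5.14 to 5.76 CPM in WT at 24 h. Their part in the results was not tested. In RNA from bulk cells, fewer producing cells and less RNA per cell cannot be told apart.

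Ligand RNA was higher in the libraries labelled dKO than in WT. Over both times 6 of the 8 genes rose, namely Ifng, Tnf, Lta, Ltb, Tnfsf10 and Tnfsf14, with log2 differences of 0.57 to 1.00, where 2.28% of all tested genes were called higher and 7.80% in either direction. At 24 h Ifng and Lta rose, 2 of 8, where 0.361% of all genes were called higher and 0.432% in either direction. At 48 h Lta, Ltb, Tnfsf10 and Tnfsf14 rose, 4 of 8, where 3.19% of all genes were called higher and 11.2% in either direction. None of the 8 was called lower, where 0.0706% of all genes were at 24 h, 8.04% at 48 h and 5.52% with the times combined. In a fit on the 48 h libraries alone, Lta was the only ligand called at that time. The median log2 difference of the 8 genes was 0.53 at 24 h and 0.75 at 48 h, and 0.69 with the times combined, beside medians over all tested genes of 0.01, -0.03 and -0.01. The comparison over both times uses the same libraries as the other genotype comparisons and is not separate evidence. Together the 8 RNAs took 0.142% and 0.145% of all counts in dKO at 48 h, 0.0835% and 0.0682% in WT at 48 h, then 0.211% and 0.200% in dKO at 24 h, and 0.0936% and 0.0970% in WT at 24 h.

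**Figure D1:**
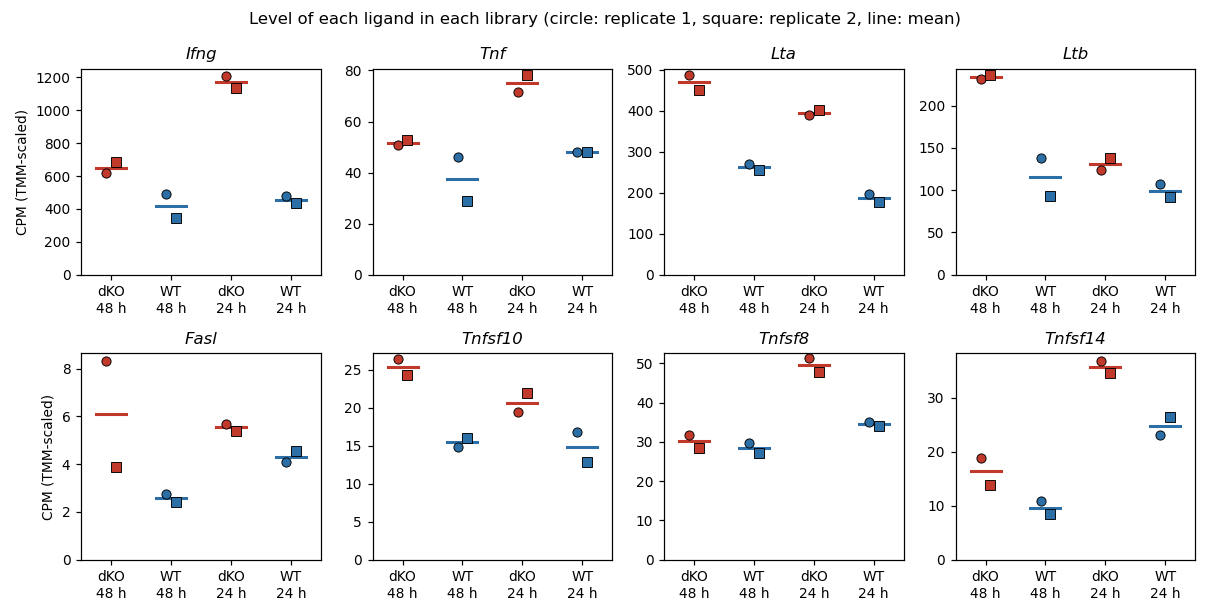
Level of each ligand RNA in each library, in CPM after TMM scaling, with a panel per gene and its own axis from 0. Points are single libraries and lines are group means (n = 2). In Ifng, Tnf, Lta and Tnfsf10 all dKO libraries lie above all WT libraries, while the Tnfsf8 libraries of the genotypes overlap at 48 h.

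Ifng, which encodes interferon gamma, was counted at 1210.3 and 1132 CPM in dKO at 24 h, against 477 and 434 CPM in WT at 24 h. At 48 h it stood at 619 and 683 CPM in dKO, against 489 and 347 CPM in WT. The dKO libraries at 24 h were the highest of all, the dKO libraries at 48 h came next, and the WT groups of both times overlapped. The difference between dKO and WT at 24 h was 1.36 on the log2 scale (SE 0.203, 2.57-fold, adjusted p = 0.0188, edgeR). At 48 h it was 0.64 (SE 0.200, 95% interval 0.19 to 1.09, adjusted p = 0.0664), which did not pass the threshold although the libraries did not overlap. Under 6 other settings of scaling, filter or model the 48 h difference ran from 0.64 to 0.83 and was called in 3. Over both times Ifng was higher by 1.00 (SE 0.142, adjusted p = 0.00723). The 24 h call held without either WT library of 48 h and was lost without any of the other 6 libraries in turn, with log2 differences of 1.28 to 1.43 and adjusted p up to 0.331. The call over both times was lost without any of the 4 dKO libraries (adjusted p up to 0.0740). Without WT replicate 1 the 48 h difference was 0.89 (adjusted p = 0.000665), and without WT replicate 2 it was 0.42 (adjusted p = 0.136).

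Tnf was counted at 71.5 and 78.3 CPM in dKO at 24 h, against 47.9 CPM in both WT libraries. At 48 h it stood at 50.8 and 52.6 CPM in dKO, against 46.1 and 28.8 CPM in WT. The groups did not overlap, with dKO at 24 h highest and dKO at 48 h next, although the nearest WT libraries lay close below dKO at 48 h. The differences were 0.64 at 24 h (SE 0.202, adjusted p = 0.371) and 0.49 at 48 h (SE 0.204, adjusted p = 0.131), and neither was called. With a library left out the 24 h difference ran from 0.57 to 0.70, and whether it was called depended on the WT libraries of 48 h. Over both times Tnf rose by 0.57 (SE 0.143, adjusted p = 0.0414). That call held only without 1 of the WT libraries of 48 h, and was lost without any of the other 6 (adjusted p up to 0.173). The 48 h difference rested on WT replicate 2, being 0.83 without replicate 1 (adjusted p = 0.000128) and 0.17 without replicate 2 (adjusted p = 0.476).

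Lta, which encodes lymphotoxin alpha, was the only one of the 8 called at both times. It was counted at 389 and 401 CPM in dKO at 24 h, against 196 and 178 CPM in WT. At 48 h it stood at 488 and 452 CPM in dKO, against 270.4 and 256 CPM in WT. The 4 groups did not overlap, with dKO at 48 h highest, followed by dKO at 24 h, WT at 48 h and WT at 24 h. Lta rose by 1.08 at 24 h (SE 0.154, 2.11-fold, adjusted p = 0.0156) and by 0.84 at 48 h (SE 0.153, 1.79-fold, adjusted p = 0.0147). Over both times it rose by 0.96 (SE 0.109, adjusted p = 0.00212), and this was the only genotype call on a member that held with each of the 8 libraries left out in turn (adjusted p up to 0.0330). The 24 h call held with either WT library of 48 h left out and was lost without any of the other 6 (adjusted p up to 0.281), and the 48 h call was lost without either dKO library of 48 h (adjusted p = 0.191).

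Ltb, which encodes lymphotoxin beta, the partner that holds lymphotoxin alpha at the membrane, was counted at 232 and 236 CPM in dKO at 48 h, against 138 and 93.3 CPM in WT. At 24 h it stood at 124 and 138 CPM in dKO, against 107 and 91.6 CPM in WT. The dKO group at 48 h stood clear of all others, and the other 3 groups lay within 91.6 to 138 CPM. Ltb rose at 48 h by 1.03 (SE 0.195, 2.04-fold, adjusted p = 0.0157), while the 24 h difference was 0.40 (SE 0.195, adjusted p = 0.775). Over both times it rose by 0.71 (SE 0.138, adjusted p = 0.0233), although libraries of the genotype labels overlapped across times. The 48 h call was lost without either dKO library of 48 h (adjusted p = 0.191), and the difference was 1.31 without WT replicate 1 and 0.78 without WT replicate 2. The call over both times held without either WT library of 48 h and was lost without any of the other 6 (adjusted p up to 0.135).

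Of the ligands of death receptors, Fasl, which encodes Fas ligand, was the rarest in counts, with 16 to 56 counts per library. Its level was 8.34 and 3.90 CPM in dKO at 48 h, against 2.73 and 2.42 CPM in WT, and 5.69 and 5.39 CPM in dKO at 24 h, against 4.08 and 4.55 CPM in WT. The replicates of dKO at 48 h differed by more than the genotype groups did at 24 h. The difference at 48 h was 1.25 (SE 0.355, 95% interval 0.46 to 2.05, adjusted p = 0.0501), that at 24 h was 0.36 (SE 0.352, adjusted p = 0.900), and that over both times was 0.81 (SE 0.250, adjusted p = 0.0760), none of them called. The 48 h difference was 0.63 without dKO replicate 1 and 1.70 without dKO replicate 2. Without WT replicate 1 it was 1.29 and called (adjusted p = 0.00936), and without WT replicate 2 it was 1.14 (adjusted p = 0.166). It was also called with RLE scaling, with library size alone and with no filter.

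Tnfsf10, which encodes TRAIL, was counted at 26.5 and 24.3 CPM in dKO at 48 h, against 14.9 and 16.1 CPM in WT. At 24 h it stood at 19.5 and 21.9 CPM in dKO, against 16.9 and 12.9 CPM in WT. All dKO libraries lay above all WT libraries, and the WT groups of both times overlapped. Tnfsf10 rose at 48 h by 0.71 (SE 0.180, 1.63-fold, adjusted p = 0.0361) and over both times by 0.59 (SE 0.130, adjusted p = 0.0282), while the 24 h difference was 0.47 (SE 0.187, adjusted p = 0.607). The 48 h call was lost without any of the 4 dKO libraries (adjusted p up to 0.194) and with DESeq2, and the call over both times held only without a WT library of 48 h (adjusted p up to 0.143 otherwise).

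Of the costimulatory ligands, Tnfsf8, which encodes CD30 ligand, was counted at 51.3 and 47.8 CPM in dKO at 24 h, against 35.0 and 33.9 CPM in WT. At 48 h it stood at 31.9 and 28.5 CPM in dKO, against 29.7 and 27.1 CPM in WT, and the libraries overlapped. The difference was 0.53 at 24 h (SE 0.145, adjusted p = 0.262), 0.09 at 48 h (SE 0.147, 95% interval -0.24 to 0.42, adjusted p = 0.693) and 0.31 over both times (SE 0.103, adjusted p = 0.0961), and none was called. The 24 h difference was called without either WT library of 48 h (lowest adjusted p = 0.0230), and that over both times without WT replicate 1 of 48 h (adjusted p = 0.00772).

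Tnfsf14, which encodes LIGHT, a ligand of HVEM and of the lymphotoxin beta receptor, was counted at 36.8 and 34.6 CPM in dKO at 24 h, against 23.0 and 26.4 CPM in WT. At 48 h it stood at 18.9 and 13.9 CPM in dKO, against 10.9 and 8.37 CPM in WT. No 2 groups overlapped, and both 24 h groups lay above both 48 h groups. Tnfsf14 rose with the dKO label at 48 h by 0.79 (SE 0.215, 1.73-fold, adjusted p = 0.0435) and over both times by 0.66 (SE 0.146, adjusted p = 0.0282), while the 24 h difference was 0.53 (SE 0.198, adjusted p = 0.544). The 48 h call held only without WT replicate 1 of that time (adjusted p up to 0.253 otherwise), with 0.58 and adjusted p = 0.145 without WT replicate 2, and it was lost with DESeq2. The call over both times held only without a WT library of 48 h (adjusted p up to 0.155 otherwise).

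**Figure D2:**
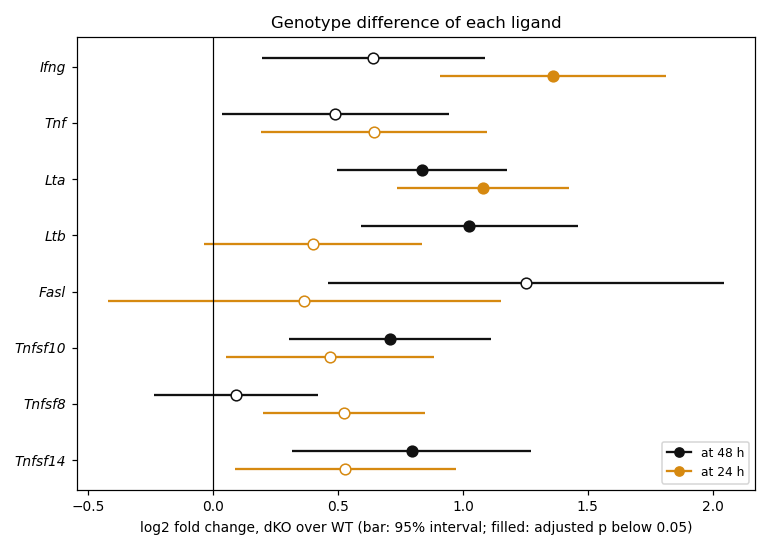
Log2 fold change of dKO over WT for each ligand RNA at 48 h and at 24 h, with 95% intervals of the edgeR fit; filled points have an adjusted p below 0.05. All 16 estimates lie above 0, from 0.09 for Tnfsf8 at 48 h to 1.36 for Ifng at 24 h, and 6 are filled.

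The dKO libraries lay above the WT libraries without overlap for all 8 genes at 24 h, where 24.3% of all tested genes did so, and for 7 of 8 at 48 h, where 28.3% did so. Over both times the 4 dKO libraries lay above the 4 WT libraries for Ifng, Tnf, Lta and Tnfsf10, 4 of 8, where 5.25% of all genes did so. Whether a genotype difference itself changed with time was tested as an interaction. None of the 8 genes was called, and 0 of 12742 genes (0.00%) were called by edgeR or by DESeq2, with 1575 genes and 2 of the 8 ligands at an unadjusted p below 0.05. These were Ifng, with a smaller difference at 48 h than at 24 h by 0.72 on the log2 scale (interaction -0.72, SE 0.282, adjusted p = 0.375), and Ltb, with an interaction of 0.63 (SE 0.274, adjusted p = 0.395). Without WT replicate 1 of 48 h the interaction of Ltb was 0.93 (adjusted p = 0.00340), the only such call on a ligand with a library left out. The other 6 interactions ran from -0.43 for Tnfsf8 to 0.89 for Fasl, none of them called.

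Between 24 and 48 h the ligands did not move in 1 direction. In the libraries labelled dKO, Ltb rose by 0.84 at 48 h relative to 24 h (SE 0.194, adjusted p = 0.0485), while Tnfsf8 fell by 0.72 (SE 0.146, adjusted p = 0.0296) and Tnfsf14 fell by 1.13 (SE 0.203, adjusted p = 0.0186). That is 1 of 8 higher and 2 of 8 lower, where 1.76% of all genes were called higher, 1.88% lower and 3.63% in either direction. Ifng differed by -0.85 (SE 0.200, adjusted p = 0.0505) and Tnf by -0.53 (SE 0.201, adjusted p = 0.158), neither of them called. With a library left out, Ifng was called with any 1 of the 4 WT libraries removed (lowest adjusted p = 0.000684) and Tnf with either WT library of 48 h removed. Ifng was also called with library size alone, with no filter, by DESeq2 and, like Tnf, in a fit on the dKO libraries only. Lta, Tnfsf10 and Fasl had log2 differences of 0.25, 0.30 and 0.12, none called in the main fit. That of Lta was called in the fit on the dKO libraries only, and that of Fasl was negative with library size alone as the scaling. The libraries of the times did not overlap for 3 genes higher at 48 h (Lta, Ltb and Tnfsf10) and 4 lower (Ifng, Tnf, Tnfsf8 and Tnfsf14), where 32.8% and 33.5% of all genes did so. The calls of Ltb and Tnfsf8 held only without a WT library of 48 h, which the shared estimate of spread includes. That of Tnfsf14 was lost without any dKO library (adjusted p up to 0.232), Ltb was not called with library size alone (0.67), and Tnfsf8 was not called by DESeq2.

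In WT libraries Tnfsf14 fell by 1.39 at 48 h relative to 24 h (SE 0.211, adjusted p = 0.00264), the only call among the 8, and this held with each of the 8 libraries left out (adjusted p up to 0.0356). It was lost in a fit on the WT libraries alone. In this comparison 3.50% of all genes were called lower, 7.87% higher and 11.4% in either direction. Lta differed by 0.49 (SE 0.153, adjusted p = 0.0689), Tnf by -0.38 (SE 0.204), Tnfsf8 by -0.28 (SE 0.146) and Fasl by -0.77 (SE 0.369), none of them called. With a library left out, Lta ran from 0.40 to 0.56 and Tnf from -0.72 to -0.06. Whether Lta and Tnf were called depended on the WT libraries of 48 h. The libraries of the times did not overlap for Lta, higher at 48 h, and for Tnf, Fasl, Tnfsf8 and Tnfsf14, lower at 48 h, where 22.7% and 24.4% of all genes did so. Ifng, Ltb and Tnfsf10 overlapped between the times in WT, with differences of -0.13, 0.21 and 0.06. The sign of these 3 turned with at least 1 left-out library or scaling. The time comparisons of the genotype labels use the same libraries as the genotype comparisons, and their difference is the interaction given above. The 8 genes had a median of -0.20 in dKO and -0.21 in WT, beside -0.01 and 0.00 over all genes.

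**Figure D3:**
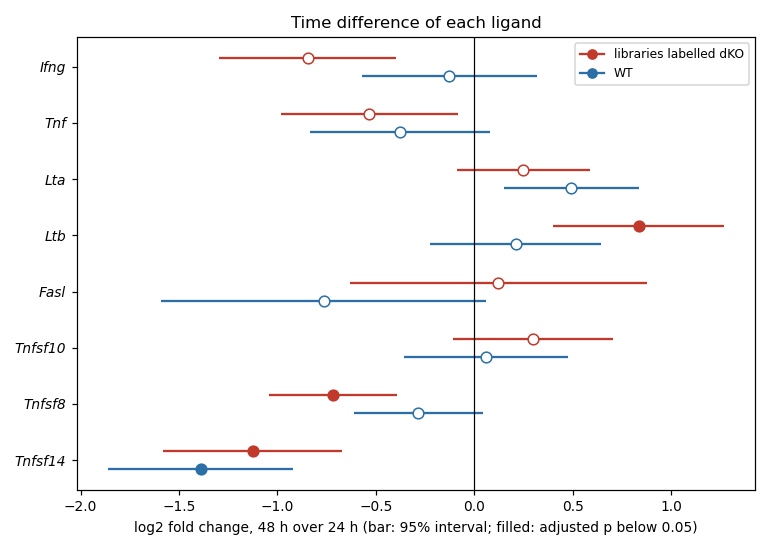
Log2 fold change of 48 h over 24 h for each ligand RNA, in the libraries labelled dKO and in WT, with 95% intervals of the edgeR fit; filled points have an adjusted p below 0.05. Tnfsf14 lies at -1.13 and -1.39 and is filled in both genotypes, and Ltb lies at 0.84 in dKO and 0.21 in WT.

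Ratios of counts within a library do not depend on the scaling between libraries. The ratio of Lta to Tnf counts was 9.60 and 8.58 in dKO at 48 h, 5.86 and 8.89 in WT at 48 h, then 5.44 and 5.12 in dKO at 24 h, and 4.09 and 3.71 in WT at 24 h. Both 48 h groups thus lay above both 24 h groups, and the genotypes overlapped at 48 h and not at 24 h. The ratio of Ifng to Lta counts ran the other way in time, with 1.27 and 1.51 in dKO at 48 h, 1.81 and 1.36 in WT at 48 h, then 3.11 and 2.83 in dKO at 24 h, and 2.44 and 2.44 in WT at 24 h. The ratio of Ifng to Tnf counts was 12.2 and 13.0 in dKO at 48 h, 10.6 and 12.1 in WT at 48 h, then 16.9 and 14.5 in dKO at 24 h, and 9.96 and 9.07 in WT at 24 h, so that the dKO libraries lay above the WT libraries at both times, at 48 h by less than the counting intervals. The ratio of Ltb to Lta counts was 0.475 and 0.524 in dKO at 48 h, 0.509 and 0.365 in WT at 48 h, then 0.318 and 0.346 in dKO at 24 h, and 0.547 and 0.516 in WT at 24 h. At 24 h the lymphotoxin beta RNA was thus lower per lymphotoxin alpha RNA in dKO than in WT, without overlap. With 2 libraries a group these ratios are a description, with no test.

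**Figure D4:**
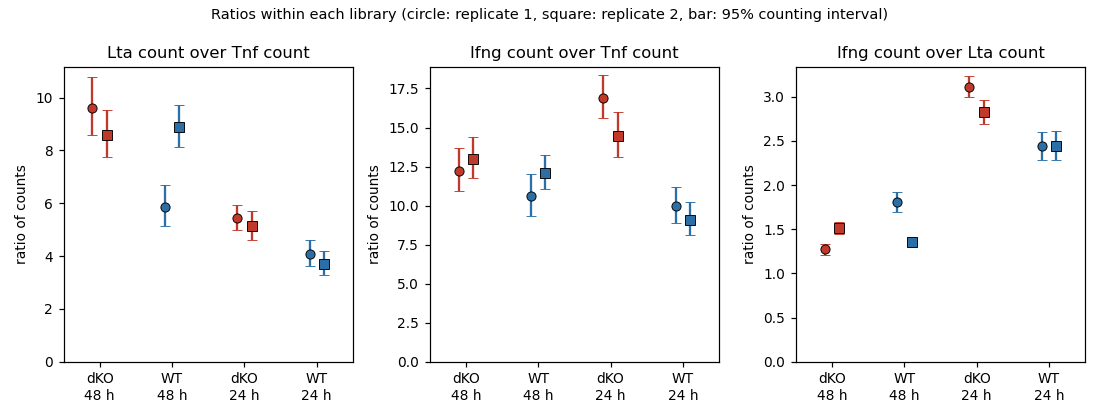
Ratios of counts of Lta to Tnf, Ifng to Tnf and Ifng to Lta in each library, with 95% exact intervals that cover counting error only. The Lta to Tnf ratio lies at 3.71 to 5.44 at 24 h and at 5.86 to 9.60 at 48 h, and the 48 h WT libraries differ by more than their counting intervals.

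Tnf, Lta and Ltb lie side by side on chromosome 17, with 3060 bases between Ltb and Tnf and 1157 bases between Tnf and Lta. Fasl lies at chr1:161780689-161788495, Tnfsf10 at chr3:27317028-27342427, Tnfsf8 at chr4:63831308-63861347 and Tnfsf14 at chr17:57189492-57194177 (GENCODE M21, GRCm38/mm10). Of the 12 nearest coding neighbours of the ligand genes that are not ligands of the set, 10 are in the table and 4 were tested, namely Dyrk2, Nfkbil1, Suco and Nceh1. Nfkbil1, 14823 bases from Lta and named for its likeness to NF-kB inhibitors, rose with the dKO label by 0.64 at 48 h (SE 0.175, adjusted p = 0.0450) and by 0.54 over both times (SE 0.124, adjusted p = 0.0297). The other 3 neighbours were not called in a genotype comparison. This is 1 of 4 tested neighbours, where 3.19% of all genes were called higher at 48 h and 2.28% over both times. Calls on neighbours were not checked with a library left out or under other settings. The microRNA genes Mir6974, inside Lta, and Mir6973a, inside Ltb, had 94 and 10 counts over all libraries, against 21504 for Lta and 9216 for Ltb. The strand rule of the counting is not given, so reads of such overlapping genes cannot be told apart with certainty.

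Of 11 other ligands of the TNF superfamily, 8 are in the table and 3 were tested. Tnfsf4 and Tnfsf11 were called higher over both times, 2 of 3, where 2.28% of all genes were called higher. Tnfsf11, which encodes RANKL, was counted at 19.1 and 22.6 CPM in dKO at 48 h, 13.7 and 9.16 CPM in WT at 48 h, 20.6 and 12.6 CPM in dKO at 24 h, and 5.20 and 6.61 CPM in WT at 24 h, and rose by 1.21 over both times (SE 0.203, adjusted p = 0.0149). Tnfsf4, which encodes OX40 ligand, rose by 0.84 (SE 0.216, adjusted p = 0.0445), a call that DESeq2 did not make. At 24 h all 3 had an unadjusted p below 0.05, edgeR called 0 and DESeq2 called 1. At 48 h edgeR and DESeq2 called 0 of the 3, with 2 at an unadjusted p below 0.05. With a library left out the count over both times ran from 0 to 3, and the call on Tnfsf4 held only with a WT library of 48 h removed. That on Tnfsf11 was lost without replicate 1 of WT at 24 h, replicate 1 of dKO at 24 h or either dKO library of 48 h.

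Of 10 genes for receptors of the ligands 7 were tested, and 0 were called in any genotype comparison by edgeR or DESeq2, with 1 at an unadjusted p below 0.05 in each. With 0.432%, 11.2% and 7.80% of all genes called at 24 h, 48 h and with the times combined, a count of 0 among 7 is near the background. Their median log2 difference was 0.01 at 24 h and -0.20 at 48 h, and -0.10 over both times. Ifngr1, the ligand-binding chain of the interferon gamma receptor, differed by 0.12 over both times (SE 0.107, 95% interval -0.12 to 0.36), and Tnfrsf1a, which encodes TNFR1, by -0.14 (SE 0.144). Tnfrsf1b, which encodes TNFR2, differed by -0.33 (SE 0.106, adjusted p = 0.0889), and Fas by 0.32 (SE 0.180). In WT Ifngr1 rose at 48 h relative to 24 h by 0.59 (adjusted p = 0.0326) and Tnfrsf1b fell by 0.52 (adjusted p = 0.0499). With a library left out the genotype counts reached 2 higher and 1 lower at 48 h.

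Among 27 factors known to act on Ifng or Tnf transcription, 25 were tested and 4 rose over both times, with 0 lower. Of all genes, 2.28% were called higher and 5.52% lower in that comparison. Id2, an inhibitor of E proteins, was counted at 40.8 and 44.8 CPM in dKO at 48 h, 26.8 and 20.5 CPM in WT at 48 h, 28.2 and 34.6 CPM in dKO at 24 h, and 17.7 and 18.7 CPM in WT at 24 h. It rose by 0.83 over both times (SE 0.131, adjusted p = 0.0126), with every dKO library above every WT library. Eomes, a T-box activator of Ifng, rose by 0.97 (SE 0.175, adjusted p = 0.0183), Bhlhe40, a basic helix-loop-helix factor, by 0.86 (SE 0.151, adjusted p = 0.0172), and Batf, a partner of JUN and IRF4, by 0.48 (SE 0.123, adjusted p = 0.0446). Tbx21, which encodes T-bet, differed by -0.12 (SE 0.107, 95% interval -0.36 to 0.12), with 27.8 and 24.4 CPM in dKO at 48 h and 26.7 and 25.6 CPM in WT. At 24 h Tbx21 stood at 31.0 and 28.1 CPM in dKO, against 34.7 and 35.0 CPM in WT. The log2 difference of -0.24 was not called (SE 0.151, adjusted p = 0.872). At 48 h Id2 and Batf were called, 2 of 25, where 3.19% of all genes were called higher and 11.2% in either direction. At 24 h edgeR called 0 and DESeq2 called 2, with an unadjusted p below 0.05 for 6 higher and 1 lower. DESeq2 did not call Batf over both times. The median over the list was -0.11 over both times, and with a library left out the counts over both times ran from 0 to 6 higher and from 0 to 7 lower.

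Of 22 genes of the interferon gamma signal 20 were tested. The counts called were 0 at 24 h, 3 at 48 h and 1 with the times combined, where 0.432%, 11.2% and 7.80% of all genes were called. The counts at 24 h and with the times combined lie near these shares. The 3 at 48 h were all higher, where 3.19% of all genes were called higher and 8.04% lower. In detail, at 24 h, the time of the largest Ifng difference, 0 were called by edgeR or DESeq2, with an unadjusted p below 0.05 for 0 higher and 4 lower and a median of -0.21. At 48 h 3 rose, namely Socs1, a feedback inhibitor of JAK kinases, by 0.62 (adjusted p = 0.0373), and the immunoproteasome subunits Psmb8 by 0.55 (adjusted p = 0.0498) and Psmb9 by 0.63 (adjusted p = 0.0499), while the median was -0.12. The 48 h calls on Socs1 and Psmb9 held only without WT replicate 1 of that time, where the differences were 0.71 and 0.86, and without WT replicate 2 they were 0.51 and 0.42. The call on Psmb8 was lost without WT replicate 2 of 48 h (0.46) or any dKO library. Over both times 1 was called, Gbp2, a guanylate-binding protein, which fell by 0.47 (SE 0.115, adjusted p = 0.0353). It was counted at 60.3 and 63.4 CPM in dKO at 48 h, 84.1 and 93.8 CPM in WT at 48 h, 102 and 125 CPM in dKO at 24 h, and 165 and 138 CPM in WT at 24 h. Psmb8 stood at 549 CPM in both dKO libraries of 48 h, 400.5 and 349 CPM in WT at 48 h, 273 and 281 CPM in dKO at 24 h, and 334 and 320.5 CPM in WT at 24 h, so the dKO libraries lay above the WT libraries at 48 h and below them at 24 h, where the difference was not called. The calls on Psmb8 and Psmb9 were lost with RLE scaling. With a library left out the 48 h counts ran from 0 to 4 higher and from 0 to 7 lower.

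All 22 genes listed for the TNF receptor and NF-kB path were tested. With the times combined 4 were called higher and 0 lower under the dKO label, where 2.28% of all genes were called higher and 5.52% lower, and the differences were positive in 16 of 22, with a median of 0.28. Nfkbia, which encodes the inhibitor IkB alpha and is itself induced by NF-kB, was counted at 81.3 and 84.6 CPM in dKO at 48 h, 53.6 and 34.6 CPM in WT at 48 h, 127 and 125 CPM in dKO at 24 h, and 71.2 and 74.6 CPM in WT at 24 h. It rose by 0.86 (SE 0.136, adjusted p = 0.0126), with every dKO library above every WT library. The adaptor Traf1 rose by 0.62 (SE 0.099, adjusted p = 0.0126), and the inhibitors Nfkbib by 0.56 (SE 0.100, adjusted p = 0.0175) and Nfkbie by 0.61 (SE 0.138, adjusted p = 0.0288). Other inhibitors of the list were not called, with differences over both times of 0.01 for Tnfaip3 and -0.25 for Cyld. At 48 h 5 rose and 0 fell (median 0.22), where 3.19% of all genes were called higher, and at 24 h edgeR and DESeq2 called 0 (median 0.20), with an unadjusted p below 0.05 for 7 higher and 1 lower. DESeq2 did not call Nfkbie over both times or Traf1 at 48 h. With a library left out the counts over both times ran from 0 to 10 higher and from 0 to 3 lower.

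**Figure D5:**
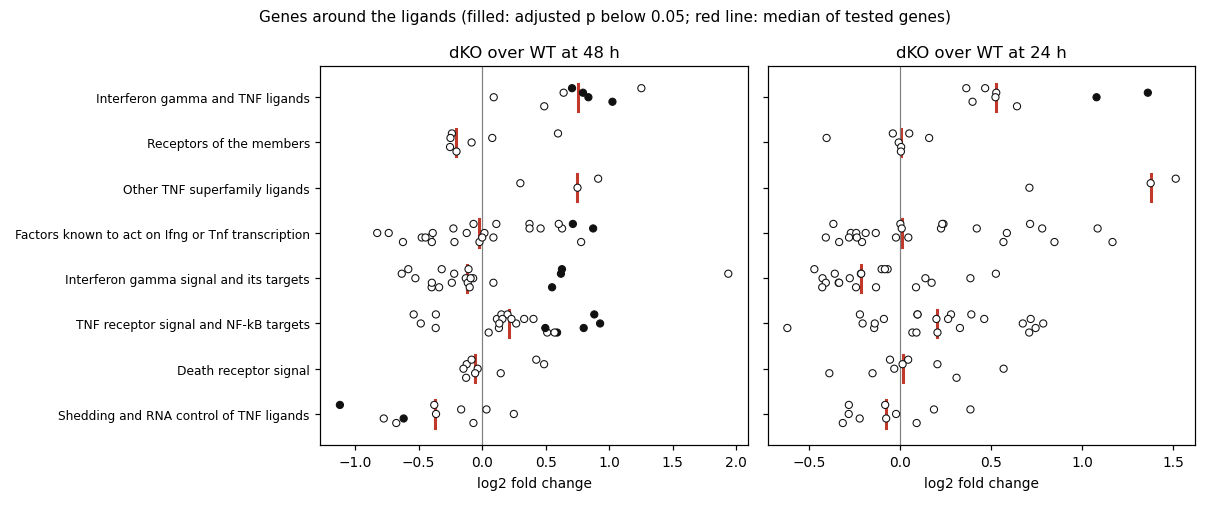
Log2 fold change of dKO over WT for the ligands and 7 lists of related genes, at 48 h and at 24 h, with each point a tested gene, filled where the adjusted p is below 0.05 and a red line at the median. The medians of the ligands are 0.75 and 0.53, and those of the interferon gamma targets are -0.12 and -0.21.

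The 9 genes of death receptor signalling were all tested and 0 were called in the 3 genotype comparisons by edgeR or DESeq2, with an unadjusted p below 0.05 for 0 at 24 h and 1 at 48 h, and for 0 over both times. Among 11 genes of ligand shedding and RNA control, 10 were tested and 2 fell, both at 48 h and over both times. Of all genes, 8.04% were called lower at 48 h and 5.52% over both times. Rhbdf2, which encodes iRhom2, the factor that carries ADAM17 to the surface, was counted at 610.5 and 563 CPM in dKO at 48 h, 1236 and 1314 CPM in WT at 48 h, 377 and 357 CPM in dKO at 24 h, and 556 and 335 CPM in WT at 24 h. It fell by 1.12 at 48 h (SE 0.233, adjusted p = 0.0174) and by 0.70 over both times (SE 0.164, adjusted p = 0.0314). Zfp36l1, which encodes a protein that promotes decay of RNAs with AU-rich elements, fell by 0.62 at 48 h (SE 0.152, adjusted p = 0.0317) and by 0.42 over both times (adjusted p = 0.0420), calls that DESeq2 did not make. In a fit on the 48 h libraries alone, Rhbdf2 was the only gene of these lists still called at that time. At 24 h 0 of the 10 were called by edgeR or DESeq2, with 0 at an unadjusted p below 0.05, and with a library left out the 48 h count of lower genes ran from 0 to 5.

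Across the 8 libraries the ligands fell into patterns that are described here by Pearson's r of log2 CPM, over points that share genotype, time and depth. Ifng and Tnf had an r of 0.926, Lta and Tnfsf10 0.917, and Tnfsf8 and Tnfsf14 0.900. Tnf and Lta, neighbours on the chromosome, had 0.470, and Ltb and Tnfsf8 had -0.144. Among 10189 genes with a mean of at least 20 counts, those closest to Ifng were Trnt1 (0.995) and Il3 (0.981), and those closest to Tnf were Tsr2 (0.976) and Ppp1r11 (0.974). Those closest to Lta were Gadd45g (0.982) and Tnfrsf4 (0.980), and those closest to Ltb were Sucla2 (0.989) and Crcp (0.983). Fasl was closest to Pttg1ip (0.957) and Mrnip (0.940), Tnfsf10 to Pet100 (0.958) and Psmd3 (0.938), Tnfsf8 to Nudcd1 (0.989) and Plscr3 (0.976), and Tnfsf14 to Utf1 (0.990) and Psmc3ip (0.989).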

How the data were processed

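The deposited table gives, for 8 libraries, the authors' whole-number counts by gene symbol. Per the submitters' processing notes, cutadapt 1.18 and Bowtie2 2.2.5 were used with the build mm10; how reads were counted (program, annotation, strand, molecular identifiers) is not given in the sources used here. An unnamed entry equal to each column's total (50% of each column sum) was left out. Total counts were 5000952 to 21686236 per library, and intervals and floors of 3 counts cover counting error only.

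All genes were tested in 1 fit of 8 libraries with edgeR 4.0.16 (R 4.3.3, quasi-likelihood F test), a mean per group, TMM scaling and filterByExpr with a minimum count of 10, which kept 12742 genes. The tests are two-sided, with Benjamini-Hochberg adjustment over all 12742 genes, and a gene is called, or said to rise or fall, at an adjusted p below 0.05 with no minimum fold. SE is the size of the log2 fold change divided by the root of its F value, and levels are CPM on TMM-scaled library sizes. Counts of list genes at an unadjusted p below 0.05 are given without the share of all genes at that level, which differed by time. By edgeR, Tnf at 48 h, with an unadjusted p of 0.0380, ranked 3702 of 12742 genes. Ltb at 24 h, with 0.0686, ranked 1129. Such counts therefore cannot be compared between times. The script was tested on simulated data.

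Alternatives were RLE scaling, library size alone, no filter, DESeq2 1.42.0, a fit on the compared groups only, a replicate block and each library left out in turn. With 1 library of a group left out, the lone library is assumed to vary like the other groups. The ligands, lists and tests were chosen with earlier results of these data known. All ligands are named in every comparison, from each list up to 4 genes called in a genotype comparison by smallest p, and for likeness the 2 genes with the highest r. Genes that do not meet this rule (receptors, Tbx21, the tested neighbours and the NR4A genes) are named as background to the ligands or as checks. Positions are from GENCODE M21 and promoters from RefSeq GRCm38.p6.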

Additional observations from a re-analysis of the deposited data

How the results depend on the processing

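The number of ligands called in the genotype comparisons was 2 at 24 h and 4 at 48 h, and 6 with the times combined. In time it was 3 in dKO and 1 in WT, and for the interaction 0. With each library left out in turn these counts ran from 0 to 4 at 24 h, 0 to 7 at 48 h, 1 to 8 over both times, 0 to 5 in dKO over time, 1 to 3 in WT over time and 0 to 1 for the interaction. Library size alone called 7 at 48 h and 4 in WT over time; it moved the median of all genes to 0.15 and -0.36 there, and to -0.18 in dKO over time. A fit on the compared groups only, with fewer libraries behind the spread, called 1 at 48 h, 6 in dKO over time and 0 in WT over time. Every genotype difference of a ligand kept its positive sign under all these alternatives. Some signs turned, of differences not called in the main fit. Fasl over time in dKO was -0.0488 with library size alone. With a library left out it ran from -0.484 to 0.592, lowest without dKO replicate 1 of 48 h. Over time in WT, Ltb was -0.153 with library size alone. With a library left out Ltb ran from -0.0760 to 0.460, lowest without WT replicate 1 of 48 h. Whether this Ltb difference was called depended on WT replicate 2 of 48 h. Tnfsf10 in WT was -0.289 with library size alone and -0.142 to 0.258 with a library left out. It was -0.142 without WT replicate 2 of 24 h and -0.013 without WT replicate 2 of 48 h. Ifng in WT ran from -0.377 to 0.0921 with a library left out, highest without WT replicate 2 of 48 h. The interaction of Tnf was 0.0424 with library size alone and ran from -0.451 to 0.208, highest without WT replicate 1 of 48 h. The cause was not tested. Of 384 ligand values with a library left out, 287 kept direction and side of the threshold, and of 272 under other settings 240 did. The number of all genes called at 24 h ran from 13 to 371 over the left-out libraries and was 206 with no filter, against 55.

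Same-numbered libraries were not shown to be pairs, since the correlation of their deviations from the group means ran from -0.0760 to 0.172. With the replicate block the counts were 2 at 24 h, 4 at 48 h, 6 with the times combined, 2 in dKO over time, 1 in WT over time and 0 for the interaction, the rise of Ltb in dKO over time being the call lost. Depth limits Fasl most, at 16 to 56 counts per library.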
